A study of Mus musculus with 20 samples.

Results

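The aryl hydrocarbon receptor and CYP1 genes were followed in the livers of mice given benzo(a)pyrene (BaP), a polycyclic aromatic hydrocarbon. The members were chosen by name: *Ahr*, *Arnt*, *Ahrr*, *Tiparp*, *Cyp1a1*, *Cyp1a2* and *Cyp1b1*. Every probe whose transcript accession belongs to one of these 7 genes was kept, which gave 8 of the 41174 probes on the array (*Cyp1a2* had 2). All 8 were among the 27346 probes called present, that is, with a liver signal beyond the spread of the negative control spots on 4 or more of the 5 arrays in some group. The animals were 20 male Muta™Mouse, 25 weeks of age, all of which, controls included, carry a *lacZ* transgene used to count mutations. Control mice received olive oil alone by daily gavage for 28 days, and the exposed mice received BaP in olive oil at 25, 50 or 75 mg/kg/day over the same period. Each group held 5 mice, numbered 1 to 5 (control), 6 to 10, 11 to 15 and 16 to 20 in order of dose, and all were killed 3 days after the last dose. RNA of each liver was labeled red and hybridized on its own array with green-labeled universal mouse reference RNA, a pool from mouse cell lines, so every level below is a log2 ratio of liver over that reference.

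The aryl hydrocarbon receptor is a ligand-activated transcription factor that waits in the cytoplasm with chaperones. Once bound by a polycyclic aromatic hydrocarbon it enters the nucleus, pairs with its partner ARNT and binds xenobiotic response elements beside its target genes. Among these targets are the CYP1 enzymes, which oxidize BaP itself, and the feedback repressors AHRR and TIPARP, which dampen the receptor. In liver, CYP1A2 is made constitutively by hepatocytes, while CYP1A1 is known for low resting levels and strong, ligand-dependent induction.

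The DNA just upstream of the genes is shown because the receptor is known to act through the short core GCGTG in such regions. For 6 of the 7 genes RefSeq (GRCm38.p6) gave the 250 bases before a transcription start, and *Ahr* had no entry. Printed 5′ to 3′ on the strand of the gene, with GCGTG or its reverse complement CACGC in capitals, are both CYP1A genes, the enzymes that the liver is known for, and both repressors that the receptor induces. The *Cyp1a1* window (chr9:57697363-57697612, plus strand) lies within the annotated span of the gene, chr9:57687928-57703824. The *Cyp1a2* window is chr9:57683656-57683905 on the minus strand, that of *Ahrr* is chr13:74292332-74292581 on the minus strand and that of *Tiparp* is chr3:65528197-65528446 on the plus strand.
Cyp1a1: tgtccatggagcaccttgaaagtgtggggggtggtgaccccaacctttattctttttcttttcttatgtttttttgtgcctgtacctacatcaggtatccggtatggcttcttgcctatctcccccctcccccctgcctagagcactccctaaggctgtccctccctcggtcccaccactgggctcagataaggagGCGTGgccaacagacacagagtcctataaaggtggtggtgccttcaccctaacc
Cyp1a2: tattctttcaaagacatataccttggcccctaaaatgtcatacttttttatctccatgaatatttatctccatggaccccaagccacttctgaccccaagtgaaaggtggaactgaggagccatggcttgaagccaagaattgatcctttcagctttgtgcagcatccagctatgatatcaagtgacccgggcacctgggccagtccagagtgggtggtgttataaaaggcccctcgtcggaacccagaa
Ahrr: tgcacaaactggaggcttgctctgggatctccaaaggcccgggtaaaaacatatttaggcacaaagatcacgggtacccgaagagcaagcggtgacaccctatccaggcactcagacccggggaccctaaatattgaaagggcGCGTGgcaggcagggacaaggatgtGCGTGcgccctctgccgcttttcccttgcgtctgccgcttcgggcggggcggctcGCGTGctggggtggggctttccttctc
Tiparp: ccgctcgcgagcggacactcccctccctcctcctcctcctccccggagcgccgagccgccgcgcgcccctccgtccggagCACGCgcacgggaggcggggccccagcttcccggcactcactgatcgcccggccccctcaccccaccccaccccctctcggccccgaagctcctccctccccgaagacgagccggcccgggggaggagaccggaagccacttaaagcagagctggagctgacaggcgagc

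GCGTG, searched on both strands, was found in 5 of the 6 member windows and in 9250 of 32851 promoter windows of the same length (28.2%). It lay 54 bases before the start of *Cyp1a1*. *Ahrr* held it 3 times, at 107, 82 and 27 bases before the start. In *Tiparp* it lay on the opposite strand at 170 bases, in *Cyp1b1* on the opposite strand at 76 bases and in *Arnt* at 29 bases. The window of *Cyp1a2* held no match. The longer form TNGCGTG, which contains the shorter core, was present in 4.1% of all windows and among the members in *Ahrr* alone. GCGTG is also a form of the core bound by hypoxia-inducible factors, so these letters are not particular to the receptor, and a match describes sequence, not binding. *Cyp1a1* and *Cyp1a2* (chr9:57676937-57683655) are neighbors, with 4272 bases between their annotated spans. *Cyp1b1* spans chr17:79706940-79715061, *Ahrr* chr13:74211118-74292331, *Tiparp* chr3:65528447-65555518, *Ahr* chr12:35497979-35534989 and *Arnt* chr3:95434367-95497240. Where each probe lies within its transcript was not analysed here.

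By the mark of the scanner software, the share of red (liver) spots well above background ran from 51.9 to 67.5% over the arrays. Control replicate 4 was the highest, and the other controls lay at 51.9 to 54.3%. One label of the samples names lungs and another names liver. All 6 hepatocyte markers on the array were well above background on all 20 arrays, whereas of 8 lung epithelium markers 5 were so on at most 3 arrays and 4 were not present. The lung markers *Sftpd* and *Sftpa1*, surfactant proteins, were well above background on 19 and 16 arrays, and *Sftpd* differed by 1.19 at 75 mg/kg/day (limma adjusted p 0.0688, not called). The arrays lay on 6 slides, and slides 1 to 3 each held 1 array of every group. All 5 arrays at 25 mg/kg/day were at position 2 and all 5 at 75 mg/kg/day at position 4 of their slides. Of the other arrays, control replicate 2 alone was also at position 2 and replicate 13 (50 mg/kg/day) alone also at position 4, so dose and position coincide but for these arrays. The tissue was bulk liver, in which fewer cells of a type and less RNA per cell cannot be told apart.

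Each dose was compared with the same 5 controls in a limma model of all 20 arrays, so the comparisons share those controls. Calls needed both a fold change over 1.5 and a p under 0.05 after Benjamini-Hochberg adjustment over all present probes. None of the 8 member probes was called at any dose by limma. The background was also 0 of 27346 probes (0%) at both lower doses, and 37 probes (0.135%) at the highest. At an unadjusted p under 0.05, 2 of the 8 probes passed at each dose, those of *Tiparp* and the dimmer probe of *Cyp1a2*, against 7.81, 6.7 and 11.2% of all present probes in order of dose. The median log2 fold change over all present probes was near 0 at each dose, and 50.3, 49.2 and 50.6% of them had a higher mean than in the controls. Between neighboring doses, 0 member probes were called by limma, with adjusted p of at least 0.71 for the lower step and 0.775 for the upper (0% called in both). At an unadjusted p under 0.05, 0 member probes differed between neighboring doses, against 8.29 and 6.91% of all present probes.

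**Figure D1:**
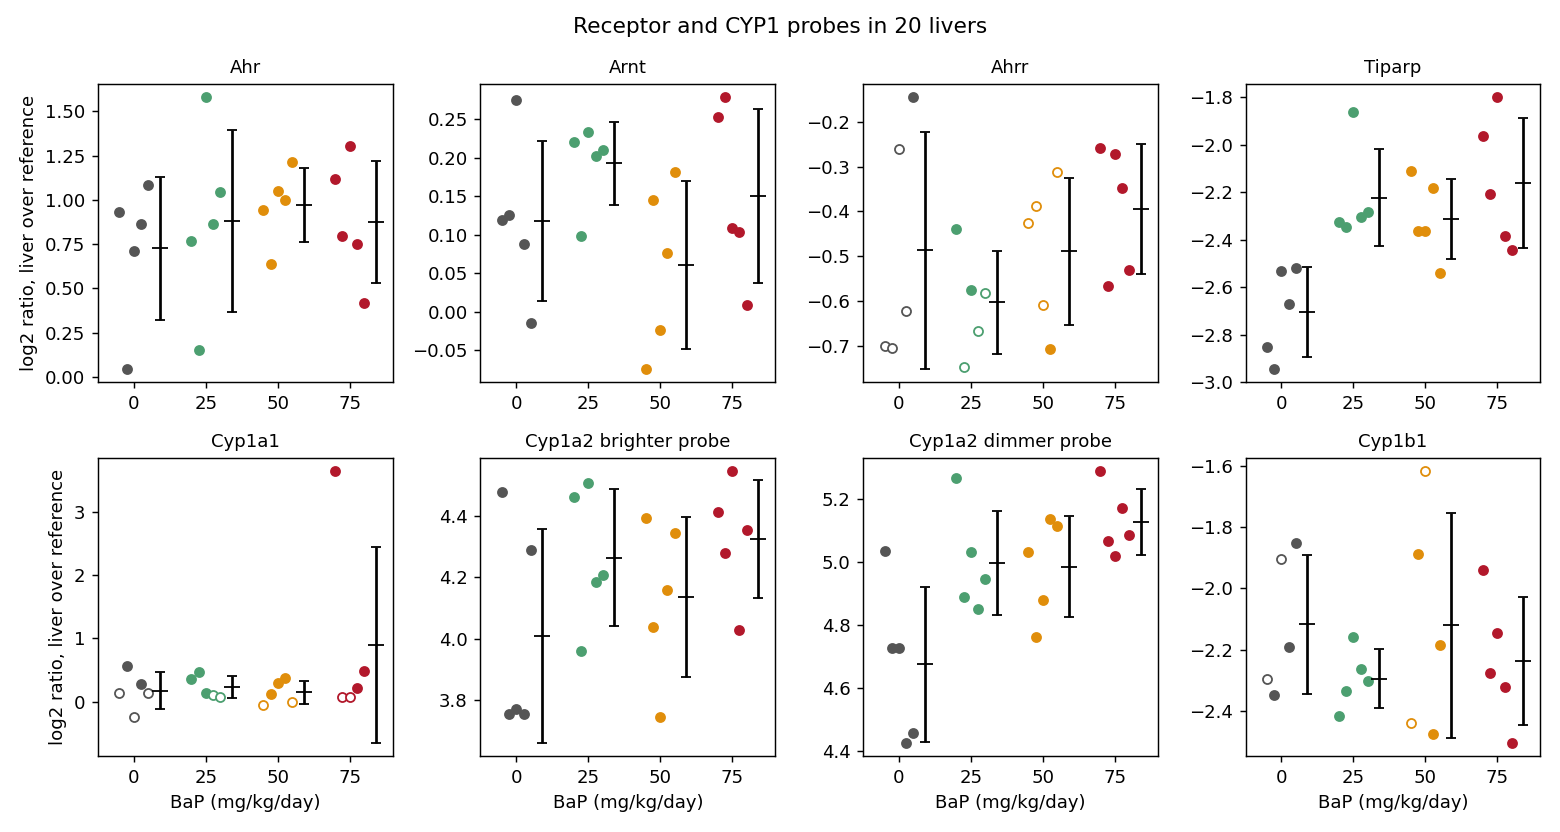
Log2 ratio of liver over reference (vertical axes, each with its own scale) of the 8 member probes against BaP dose (mg/kg/day), 1 point per mouse, with the group mean and SD (n = 5) drawn beside the points. Open points were not well above background. The *Tiparp* points at 25 and 75 mg/kg/day all lie above the controls, and a single *Cyp1a1* point at 75 mg/kg/day lies at 3.64.

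*Ahr*, the receptor, was measured by 10 spots on each array. Its log2 ratios in control replicates 1 to 5 were 0.93, 0.05, 0.71, 0.86 and 1.09. At 25 mg/kg/day they were 0.77, 0.15, 1.58, 0.86 and 1.04 in replicates 6 to 10. The 50 mg/kg/day group had 0.94, 0.64, 1.05, 1.00 and 1.21 in replicates 11 to 15, and at 75 mg/kg/day 1.12, 0.80, 1.30, 0.75 and 0.41 in replicates 16 to 20. The groups overlapped throughout, with control replicate 2 and replicate 7 lowest and replicate 8 highest. Against control the log2 fold changes were 0.15, 0.24 and 0.15 (SE 0.22 each, n = 5 per group), with adjusted p from limma of 0.886, 0.867 and 0.849. At 75 mg/kg/day the 95% interval ran from -0.32 to 0.61, so a change of the size used for a call lies inside it.

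The spread of *Ahr* between arrays was larger than that between the spots of an array. The SD between the spots of an array had a median of 0.0527 (0.0257 to 0.0848), after 5 spots marked as outliers were left out. The SD between the arrays of a group, each a different mouse, labeling and hybridization, was 0.384, or 7.29 times as large, which is at the 89.4th percentile of all present probes.

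**Figure D2:**
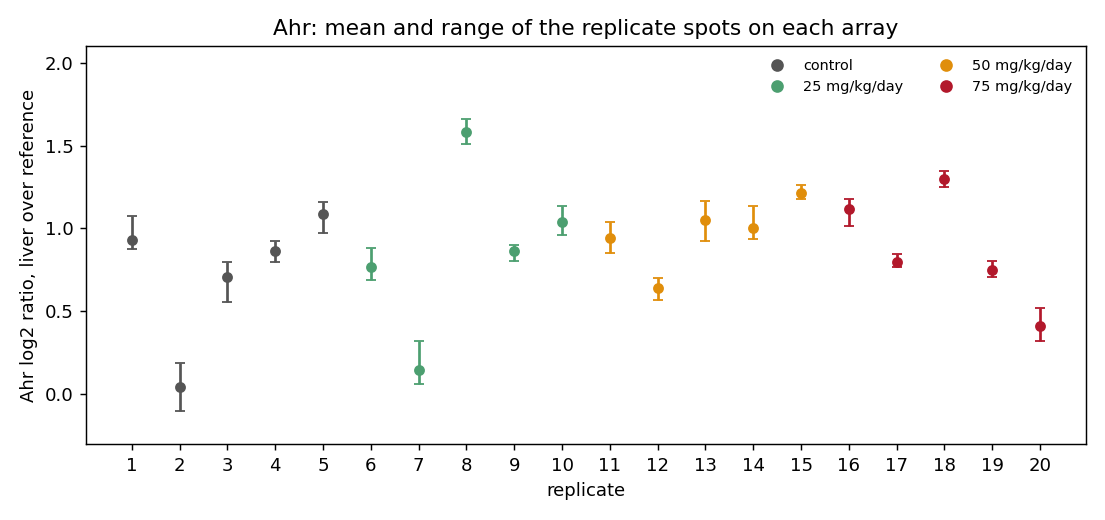
Log2 ratio of *Ahr* (vertical axis) in each of the 20 arrays by replicate number, colored by group. Points are means over the replicate spots of an array and bars are the range of those spots. The bars are short beside the distances between mice of the same group, such as replicates 7 and 8.

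*Arnt*, the partner that the receptor needs to bind DNA, varied little. In control replicates 1 to 5 its log2 ratios were 0.12, 0.13, 0.27, 0.09 and -0.01, and at 25 mg/kg/day 0.22, 0.10, 0.23, 0.20 and 0.21. The 50 mg/kg/day group had -0.07, 0.15, -0.02, 0.08 and 0.18, and at 75 mg/kg/day 0.25, 0.28, 0.11, 0.10 and 0.01. All groups overlapped. Differences from control were 0.07, -0.06 and 0.03 (SE 0.08), with limma adjusted p of 0.832, 0.923 and 0.918, and at 75 mg/kg/day the 95% interval was -0.14 to 0.20. The SD between mice of a group, 0.0978, was at the 1.09th percentile of present probes. The liver signal of this probe was 1.28 to 2.05 times its background, so these ratios and their small SD rest on a dim spot. Over the 20 arrays the ratios correlated with the deposited ones at r = 0.63.

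*Ahrr*, the repressor that competes with the receptor for ARNT, was near the limit of measurement. Its probe was well above background on 9 of 20 arrays: 1 control array, 2 at 25, 1 at 50 and all 5 at 75 mg/kg/day. The control log2 ratios were -0.70, -0.70, -0.26, -0.62 and -0.15, and those at 25 mg/kg/day -0.44, -0.75, -0.58, -0.67 and -0.58. Mice given 50 mg/kg/day had -0.43, -0.39, -0.61, -0.71 and -0.31, and at 75 mg/kg/day -0.26, -0.57, -0.27, -0.35 and -0.53. The groups overlapped, and the 5 arrays at 75 mg/kg/day lay inside the range of the controls. Log2 fold changes of -0.12, -0.00 and 0.09 (SE 0.12) had limma adjusted p of 0.819, 0.998 and 0.815. The 95% interval at 75 mg/kg/day was -0.15 to 0.34 on the log2 scale. With the processed signals of the scanner software the differences were 0.83, 0.0812 and 1.00, and none was called.

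*Tiparp*, an ADP-ribosyltransferase that is both a target and a repressor of the receptor, showed the most regular difference among the members. Control replicates 1 to 5 had log2 ratios of -2.85, -2.94, -2.53, -2.67 and -2.52. At 25 mg/kg/day replicates 6 to 10 had -2.33, -2.35, -1.86, -2.30 and -2.29, all above every control. Mice given 50 mg/kg/day had -2.11, -2.36, -2.37, -2.18 and -2.54, and at 75 mg/kg/day -1.97, -2.21, -1.80, -2.38 and -2.44. Replicate 15, at 50 mg/kg/day, was the only exposed mouse inside the control range. Thus 14 of 15 exposed arrays lay above all 5 controls, an arrangement (14 or more) that 35 of 27064 present probes with a value on every array showed (0.129%). All exposed arrays lay above all controls for 0.56% of probes at the lowest and 0.937% at the highest dose.

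The group means of *Tiparp* were -2.70 ± 0.19 (SD, n = 5) in controls and -2.22 ± 0.20, -2.31 ± 0.17 and -2.16 ± 0.27 at the 3 doses. The level at 25 mg/kg/day was thus 1.40-fold that of the controls (log2 fold change 0.48, SE 0.13, 95% interval 0.20 to 0.76). At 50 mg/kg/day it was 1.31-fold (0.39, 0.11 to 0.67), and at 75 mg/kg/day 1.46-fold (0.54, 0.27 to 0.82). The unadjusted p from limma were 0.00176, 0.00799 and 0.000571, and the adjusted p 0.636, 0.676 and 0.131, so no dose passed. At 75 mg/kg/day the probe ranked 119 of 27346 by p. With the 15 exposed arrays set as a whole against the controls, a contrast chosen after the data were seen, the log2 difference was 0.47 (0.25 to 0.70), with an adjusted p of 0.181 from limma, and 0.0146% of probes were called in that contrast. The same 2 member probes passed an unadjusted p under 0.05 there and for a slope with dose, against 10.6 and 8.58% of all present probes. The slope was 0.15 on the log2 scale per 25 mg/kg/day, with a limma adjusted p of 0.262, while 0.157% of probes were called for a slope. The doses themselves did not separate, and the order of the group means was control, 50, 25 and 75 mg/kg/day from low to high.

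Within slides, *Tiparp* was higher in 11 of 11 exposed arrays than in the control on the same slide, by 0.13 to 0.89, a pattern that 1.3% of present probes showed. These differences share 5 control arrays and are not independent. The differences were 0.37 to 0.66 at 25 (3 arrays), 0.13 to 0.74 at 50 (5 arrays) and 0.46 to 0.89 at 75 mg/kg/day (3 arrays). With slide as a block the difference at 75 mg/kg/day was 0.64, with a limma adjusted p of 0.0370, which passed the threshold, and on slides 1 to 3 alone it was 0.69 with an adjusted p of 0.0872. The liver channel alone, without the reference, gave log2 fold changes of 0.36, 0.52 and 0.42 at the 3 doses (limma adjusted p 0.919, 0.490 and 0.156). That setting used quantile normalization between arrays in place of loess within arrays. The reference channel at this probe differed by -0.20, 0.06 and -0.18 between the same arrays. The part of the reference in the *Tiparp* differences was not tested. The one control at position 2, replicate 2, had the lowest *Tiparp* of all arrays (-2.94), below the 5 exposed arrays at that position. The one array at position 4 from another dose, replicate 13 (50 mg/kg/day), had -2.37, within the range of the 75 mg/kg/day group. These are single arrays, and the part of position in the *Tiparp* differences was not tested.

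**Figure D3:**
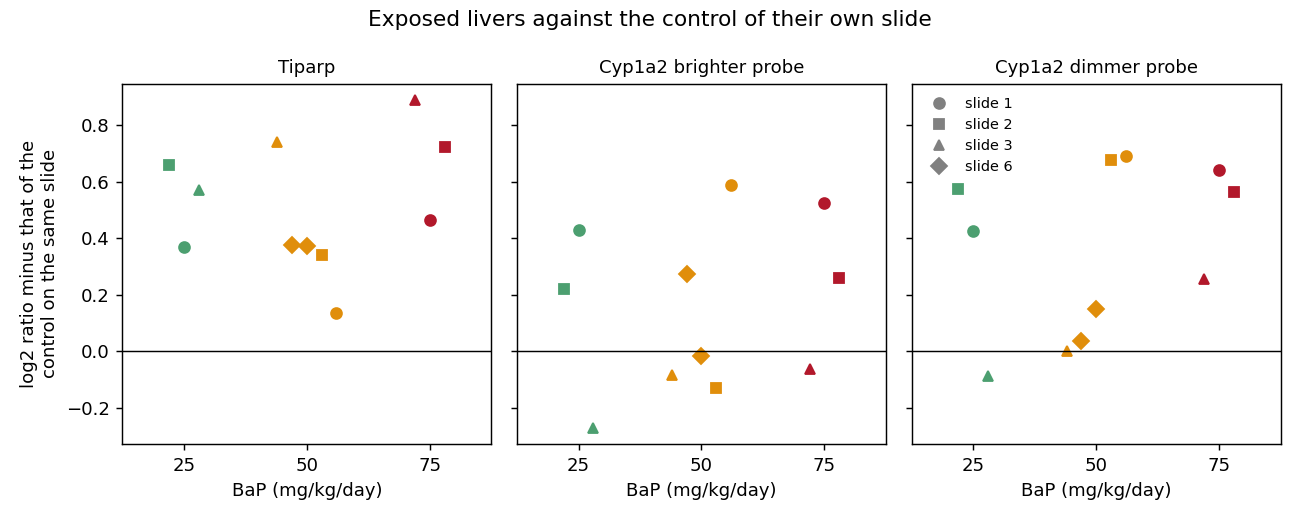
Log2 ratio of each exposed array minus that of the control on its own slide (vertical axis, the mean of both controls on slide 6) against BaP dose (mg/kg/day), for *Tiparp* and both *Cyp1a2* probes, with the slide shown by the marker. All 11 *Tiparp* points lie above 0, against 6 of 11 for the brighter and 9 of 11 for the dimmer *Cyp1a2* probe.

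*Cyp1a1*, the enzyme best known for induction by the receptor, was close to background in most livers and high in a single one. The median liver brightness of its spot was 94 to 157 scanner units in 19 arrays, at most 1.56 times the local background. In replicate 16, at 75 mg/kg/day, the brightness was 492, or 5.79 times background. The probe was well above background on 11 of 20 arrays, 2 in the control group and 3 at each dose. The green reference signal in replicate 16 was 50, within the 39 to 64 of the other arrays, and the spot carried no outlier mark.

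**Figure D4:**
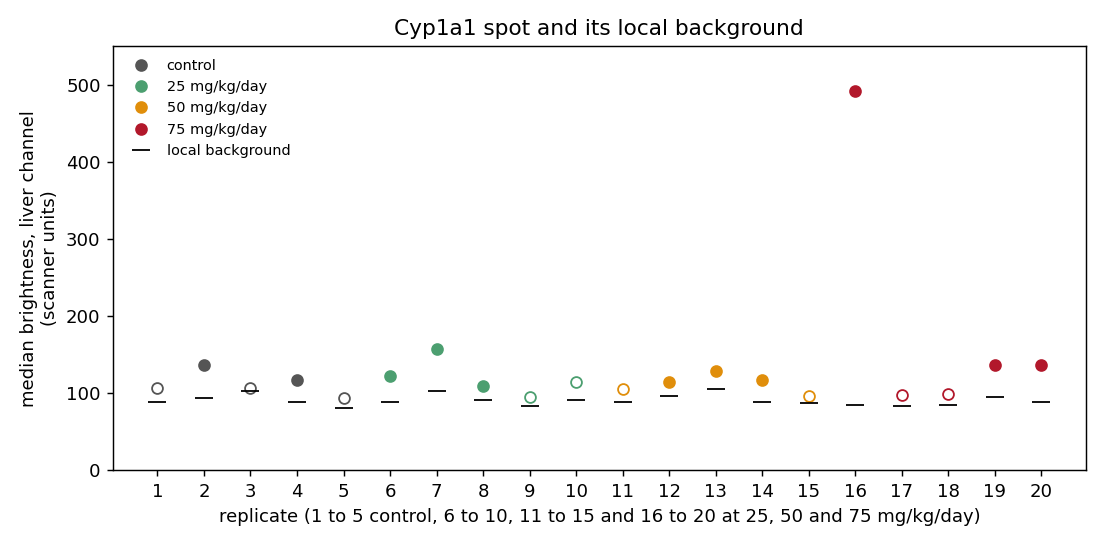
Median red brightness of the *Cyp1a1* spot (points, scanner units, linear axis) and of its local background (dashes) in each of the 20 arrays by replicate number, colored by group, with open points where the spot was not well above background. Replicate 16 stands at 492, and the other 19 arrays lie between 94 and 157.

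The *Cyp1a1* log2 ratios were 0.14, 0.56, -0.24, 0.28 and 0.14 in control replicates 1 to 5 and 0.36, 0.48, 0.14, 0.11 and 0.08 at 25 mg/kg/day. The 50 mg/kg/day group had -0.05, 0.12, 0.29, 0.38 and 0.00, and at 75 mg/kg/day 3.64, 0.07, 0.07, 0.21 and 0.49. Apart from replicate 16, every exposed value lay within the control range. Replicate 16 was 3.08 above the next array, a distance that depends on how the near-background signals of the other 19 arrays are treated. Among the 27346 present probes *Cyp1a1* was the only one on which a single array stood more than 3 log2 units above the rest. That limit lies just under the distance of *Cyp1a1* itself, and counts at other limits are not given here. In the deposited LOWESS-normalized ratios the same array stood at 3.30 and the next highest, replicate 13, at 0.50, a distance under that limit. The log2 fold changes against control were 0.06, -0.03 and 0.72 (SE 0.45), with limma adjusted p of 0.984, 0.995 and 0.566. The last ranged from 0.64 to 1.45 over the other ways of processing, and the first reached 0.75 with the processed signals of the scanner software, where it was not called either. Without replicate 16 the difference at 75 mg/kg/day became 0.04 (adjusted p from limma 0.948), and the other 4 mice at that dose averaged 0.21 ± 0.20 (SD).

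Replicate 16 was also high, but within reach of the other mice, for several genes of the pathway. It was the highest of 20 for the dimmer *Cyp1a2* probe (5.29), for *Nqo1* (-1.02), a quinone reductase, and for *Htatip2* (2.66), and ranked 2 for *Ahrr* (-0.26). Its rank was 3 for *Tiparp* and for *Arnt*, 4 for *Ahr* and 5 for *Cyp1b1* and the brighter *Cyp1a2* probe. On *Slc46a3* it was the lowest of its group and ranked 14 of 20. This mouse was singled out after its values were seen.

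*Cyp1a2*, the constitutive liver enzyme of the family, was abundant against the reference in every mouse. The brighter of its probes averaged 18.2-fold and the dimmer 30.8-fold the reference, and both were well above background on all 20 arrays. On the brighter probe the log2 ratios were 4.48, 3.75, 3.77, 3.75 and 4.29 in controls and 4.46, 3.96, 4.51, 4.19 and 4.21 at 25 mg/kg/day. The 50 mg/kg/day group had 4.39, 4.04, 3.74, 4.16 and 4.34, and at 75 mg/kg/day 4.41, 4.28, 4.54, 4.03 and 4.35. Control replicate 1 lay above all exposed mice but replicates 8 and 18, and the groups overlapped. Against control this probe differed by 0.25, 0.13 and 0.31 (SE 0.16), with limma adjusted p of 0.700, 0.913 and 0.470.

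On the dimmer *Cyp1a2* probe the controls had 5.04, 4.73, 4.73, 4.43 and 4.46 and the mice at 25 mg/kg/day 5.27, 4.89, 5.03, 4.85 and 4.95. Mice given 50 mg/kg/day had 5.03, 4.76, 4.88, 5.14 and 5.12, and at 75 mg/kg/day 5.29, 5.07, 5.02, 5.17 and 5.09. All exposed values lay above 4 of the 5 controls, and 4 of the 5 mice at 75 mg/kg/day lay above control replicate 1 as well. Control replicate 1 lay inside the range of the exposed mice at each dose. The share of all present probes with such an arrangement was not determined here. The log2 fold changes were 0.32, 0.31 and 0.45 (SE 0.12), and the last, a 1.37-fold difference, had a 95% interval of 0.21 to 0.69. Their unadjusted p from limma were 0.0113, 0.0143 and 0.000862 and the adjusted p 0.636, 0.685 and 0.146. Over the 20 single omissions the difference at 75 mg/kg/day ran from 0.39 to 0.54, with limma adjusted p from 0.0465 to 0.395. The lowest of these p came without control replicate 1, the highest control. There the difference was 0.54, still below the 1.5-fold needed for a call.

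The *Cyp1a2* probes did not give the same picture on a slide-by-slide basis. The dimmer probe exceeded the same-slide control in 9 of 11 exposed arrays (-0.09 to 0.69), including 3 of 3 at 75 mg/kg/day. The brighter did so in 6 of 11 (-0.27 to 0.59). How many of all present probes reach these counts was not determined here. In the liver channel alone the log2 fold changes were -0.00, 0.57 and 0.19 for the dimmer probe (SE 0.37). For the brighter probe they were -0.02, 0.48 and 0.14 (SE 0.32). Size and, at 25 mg/kg/day, sign thus differed from those of the ratios, where both values at 25 were small beside the SE. That setting also used quantile normalization between arrays in place of loess within arrays, so the part of the reference was not tested.

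*Cyp1b1*, the family member expressed mainly outside hepatocytes, was dim, with a liver signal 1.28 to 1.99 times background, and was well above background on 16 of 20 arrays. The control log2 ratios were -2.30, -2.35, -1.90, -2.19 and -1.85, and those at 25 mg/kg/day -2.42, -2.33, -2.16, -2.27 and -2.30. Mice given 50 mg/kg/day had -2.44, -1.89, -1.62, -2.48 and -2.19, and at 75 mg/kg/day -1.94, -2.28, -2.15, -2.32 and -2.50. The 50 mg/kg/day group held both the highest array and one of the lowest, and all groups overlapped. The log2 fold changes of -0.18, -0.00 and -0.12 (SE 0.15) had limma adjusted p of 0.780, 0.998 and 0.809, and with slide as a block the first and last were 0.03 and 0.09.

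**Figure D5:**
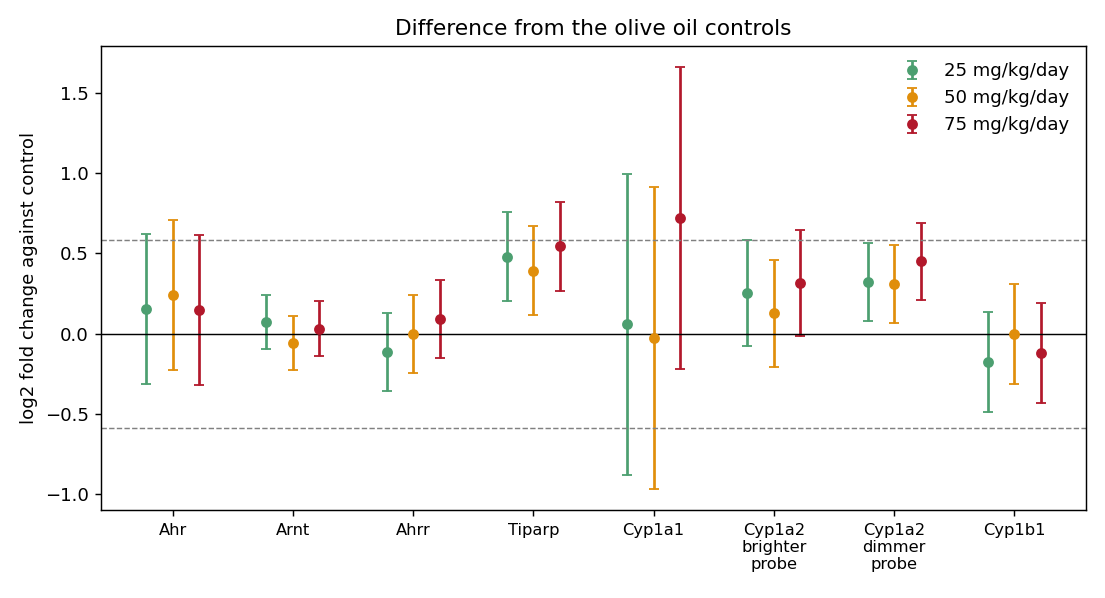
Log2 fold change against the olive oil controls (vertical axis) for the 8 member probes in the 3 dose groups of BaP (mg/kg/day). Points are limma estimates, bars are 95% intervals and dashed lines mark a 1.5-fold change in either direction. The intervals of *Tiparp* and of the dimmer *Cyp1a2* probe lie above 0 at each dose before adjustment, and no probe was called.

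Markers of several liver cell types, but not of all, also had higher means in the exposed groups, as *Tiparp* and *Cyp1a2* did. Of all present probes 50.3, 49.2 and 50.6% had higher means in order of dose, and 0, 0 and 0.135% were called. All 6 measured hepatocyte markers had higher means at each dose (0 called by limma), with median log2 fold changes of 0.36, 0.30 and 0.46. The mean log2 ratio over the hepatocyte list was 4.32 to 5.69 in controls, 5.12 to 5.64 at 25, 5.10 to 5.65 at 50 and 5.17 to 5.56 at 75 mg/kg/day. Of 8 sinusoidal endothelium markers 7, 8 and 8 had higher means, and *Lyve1* was called at 75 mg/kg/day (2.23, limma adjusted p 0.0189). Over that list the mean log2 ratio was 2.62 to 3.47 in controls and 3.43 to 4.09 at 75 mg/kg/day. Of 8 Kupffer cell markers 6, 7 and 7 had higher means, and *Marco* was called at 75 mg/kg/day (2.19, limma adjusted p 0.00148). The other Kupffer markers differed by -0.30 to 0.17 at that dose. Over the Kupffer list, *Marco* included, the mean log2 ratio was 2.15 to 2.57 in controls and 2.33 to 2.97 at 75 mg/kg/day. Higher means were also found for 8, 7 and 6 of 8 pericentral hepatocyte markers. Stellate cell and fibroblast markers were higher for 5 of 8 at each dose. Bile duct markers were higher for only 1, 2 and 3 of 6, with median log2 fold changes of -0.22, -0.08 and -0.05. Every measured marker of the hepatocyte, endothelium and Kupffer lists was well above background on all 20 arrays. The part of any cell type in the *Tiparp* and *Cyp1a2* differences was not tested.

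Other targets attributed to the receptor gave 1 call, at 75 mg/kg/day, where 0.135% of all present probes were called. Of 18 listed battery genes 16 were present. Higher means were found for 11, 13 and 11 of the 16 at 25, 50 and 75 mg/kg/day, against 50.3, 49.2 and 50.6% of all present probes. The median log2 fold changes were 0.09, 0.16 and 0.17. An unadjusted p under 0.05 in limma was reached by 0, 3 and 3 of the 16, against 7.81, 6.7 and 11.2% of all present probes. Those at 50 mg/kg/day included *Fgf21*, which was lower than in the controls. *Nqo1*, which reduces quinones, rose at 75 mg/kg/day, by 0.68 on the log2 scale (SE 0.13, 1.60-fold, limma adjusted p 0.0386). Its log2 ratios were -1.92, -2.02, -1.53, -1.76 and -1.87 in controls and -1.02, -1.10, -1.04, -1.25 and -1.29 at 75 mg/kg/day, so these groups did not overlap, as was true in this direction of 0.937% of probes. At 25 mg/kg/day they were -1.58, -1.93, -1.92, -1.56 and -1.60 and at 50 mg/kg/day -1.87, -1.27, -1.12, -1.69 and -1.42, where the log2 fold changes of 0.10 and 0.34 were not called. The *Nqo1* call was lost without any 1 of 9 single arrays (control replicates 1, 2, 4 and 5, replicate 15, and replicates 16, 17, 18 and 20), with adjusted p from 0.0199 to 0.122 over all single omissions. *Nqo1* is also a known target of NRF2, encoded by *Nfe2l2*, which differed from control by 0.48 in the highest dose group (limma adjusted p 0.348).

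*Fgf21*, a liver hormone on the same list, differed by -0.35, -1.14 and -0.46 at 25, 50 and 75 mg/kg/day. It was not called at any dose (limma adjusted p 0.874, 0.707 and 0.761). The difference at 50 mg/kg/day had an unadjusted p of 0.0255 in limma.

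Chaperones, partners and coactivators of the receptor were all present (12 of 12 listed), and 0 were called at any dose by limma. At an unadjusted p under 0.05, 1, 0 and 1 of them passed at 25, 50 and 75 mg/kg/day, against 7.81, 6.7 and 11.2% of all present probes. Higher means were found for 3, 5 and 4 of the 12, against 50.3, 49.2 and 50.6% of all present probes. The median log2 fold changes of the 12 were -0.10, -0.00 and -0.11. At 75 mg/kg/day the most positive differences were those of *Hif1a* (0.10), another partner of ARNT, and the coactivator *Ncoa3* (0.09). The most negative were those of *Hsp90aa1* (-0.61, limma adjusted p 0.491), a chaperone that holds the receptor in the cytoplasm, and *Arntl* (-0.39, 0.790), a clock factor of the same protein family as ARNT.

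Genes listed as partners of the CYP1 family in BaP activation were higher in mean at every dose without a call. All 6 listed genes were present and 6 of 6 had higher means at each dose, with median log2 fold changes of 0.19, 0.31 and 0.23, and 0, 1 and 2 passed an unadjusted p under 0.05 in limma (0 called). Over all present probes 50.3, 49.2 and 50.6% had higher means and 7.81, 6.7 and 11.2% passed that p. The hepatocyte markers were likewise higher for 6 of 6 at each dose, with medians of 0.36, 0.30 and 0.46. The part of any cell type in these differences was not tested. *Cyb5r3*, a cytochrome b5 reductase, differed by 0.55 at 75 mg/kg/day (limma adjusted p 0.382). *Ephx1*, the microsomal epoxide hydrolase that acts on BaP epoxides, differed by 0.45 (limma adjusted p 0.441). The smallest differences were those of *Ephx2*, the soluble epoxide hydrolase (0.06), and *Cyb5a*, cytochrome b5 (0.14).

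Genes like each member in pattern were sought among 13757 probes well above background on all 20 arrays, by Pearson's r of the log2 ratio over the 20 arrays. The arrays share slides, one reference RNA and their dose groups, so r is a description. Among the closest to *Tiparp* were *Dyrk3* (r = 0.80, or 0.72 after removal of slide means), *Nfe2l2* (0.78, 0.71) and *Adgrg3* (0.78, 0.81). Among the closest to *Ahr* were *Kynu* (0.86, 0.80) and *Echdc1* (0.86, 0.78). Among the closest to the brighter *Cyp1a2* probe were *Qprt* (0.96, 0.90) and *Ppara* (0.95, 0.89), and to the dimmer probe *Gpt* (0.92, 0.92), *Tnrc6a* (0.90, 0.88) and *Reep6* (0.87, 0.90). The *Cyp1a2* probes correlated with each other at 0.59, below each of these values, and shared none of these genes. *Arnt* had the weakest matches, *Lrrc3* (0.69, 0.75), *Prelid2* (0.64, 0.71) and *Mtmr4* (0.63, 0.71).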

How the data were processed

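Liver RNA of 20 mice was hybridized once each against universal reference RNA on two-color Agilent arrays. The authors deposited median spot and background intensities of both channels, extracted by the scanner software without normalization, and processed intensities that the software had background subtracted and dye normalized. The log2 ratios deposited by the authors were normalized by LOWESS within each array. Here the median intensities were corrected by normexp (offset 50) and normalized by loess within arrays, outlier spots were left out, spots of a probe were averaged (41174 probes from 43379 non-control spots), and 0 spots were saturated. Presence followed the methods of the study (trim of 5%, 3 trimmed SDs of 153 negative control spots, 4 of 5 arrays of a group). Symbols came from RefSeq accessions (23374 probes, 18195 of them present). All members matched.

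Groups were fitted in 1 limma model of log2 ratios (R 4.3.3 with limma 3.58.1 and the data.table package, version 1.17.8), with two-sided tests, eBayes and Benjamini-Hochberg adjustment over 27346 probes. The code was tested on simulated data. Plots were made in matplotlib 3.10.9 under Python 3.11.15. MAANOVA, which the study used, was not run. The study left out 1 sample without naming it, and none was removed here. The series description gives 24 mg/kg for the lowest dose, and the 25 mg/kg of the sample labels was used. The samples were taken as liver. The members and lists were chosen with earlier results of these data known. The text names all member probes, list genes called at any dose, the 2 list genes with the largest difference in each direction at 75 mg/kg/day, and the 3 genes most like each member that was well above background on all arrays. Markers are named where they moved with a member. Some genes that this rule selects are not reported here. Alternatives covered background correction, normalization, the deposited ratios, the liver channel alone, filters on dim probes, slide as a block, the samples in the model and each array left out. Liver signal over background had array medians of 1.29 to 1.72, the median SD of a probe within groups was 0.22 on the log2 scale, and the number of arrays limits the precision.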

Additional observations from a re-analysis of the deposited data

Results flagged for a closer look

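In groups of 5 arrays, the highest or lowest member value stood apart by Dixon's test in 3 of 32 groups, where chance flags about 1 in 20 groups (1.6 expected). *Cyp1a1* in replicate 16 (75 mg/kg/day) was at a log2 ratio of 3.64, above the 0.49 of the next mouse of its group. *Tiparp* in replicate 8 (25 mg/kg/day) was at -1.86, above the -2.29 of the next mouse. *Arnt* in replicate 7 (25 mg/kg/day) was at 0.098, below the 0.20 or more of the other mice of its group.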

How the results depend on the processing

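The counts of member probes called stayed at 0 in every comparison and setting run, except that slide as a block gave 1 call at 75 mg/kg/day, *Tiparp* (0.64, limma adjusted p 0.0370), and 58 calls over all probes against 37. The *Nqo1* call, the only one in the receptor pathway lists at 75 mg/kg/day, was lost (0 calls) with the deposited log2 ratios (adjusted p 0.0734), the liver channel alone (0.0521), only the groups compared (0.0877, with 5 calls over all probes) and slides 1 to 3 only (0.0504), and over single omissions the count ran from 0 to 1. Aquantile, the filters on dim probes and the model of only the groups compared left log2 fold changes as they were, so they could not change a direction. The *Tiparp* difference at 75 mg/kg/day was 0.54 in each of them, as in the main fit. *Tiparp* and *Ahr* kept their direction at each dose in all 11 alternatives other than single omissions, with those settings counted among the 11.

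Uncalled member differences, most of them under 0.20 in size but those of *Cyp1a2* at 25 mg/kg/day 0.25 and 0.32, changed sign in these settings, and the cause was not tested. Without background correction *Cyp1a1* at 50 mg/kg/day was 0.0900, *Arnt* at 50 was 0.0029 and its slope 0.0050. With the scanner software's processed signals, *Cyp1b1* was 0.17 at 25 and 0.27 at 75 mg/kg/day, *Ahrr* 0.83 at 25 and 0.0812 at 50, *Cyp1a1* 0.36 at 50, and *Arnt* -0.0814 at 25, -0.16 at 75 and -0.17 in all exposed arrays. Larger without a change of sign there were *Ahrr* at 75 (1.00 against 0.09) and *Cyp1a1* at 25 (0.75 against 0.06) and at 75 (1.45 against 0.72). With the deposited ratios *Cyp1a1* at 50 was 0.0852. In the liver channel alone *Cyp1a2* at 25 was -0.0185 (brighter probe) and -0.0038 (dimmer probe), *Arnt* -0.0427 at 25 and -0.0448 in all exposed arrays, *Cyp1a1* 0.0399 at 50 and *Ahrr* 0.0125 at 50. With slide as a block *Cyp1b1* was 0.0293 at 25 and 0.0862 at 75. On slides 1 to 3 only, a setting chosen after seeing the data like the contrast of all exposed arrays and scale normalization, *Cyp1a1* at 25 was -0.0754, *Ahrr* at 50 was 0.0071 and the slope of *Arnt* 0.0295.

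With single arrays left out, *Cyp1a1* ranged from -0.0469 to 0.15 at 25 and from -0.13 to 0.0692 at 50, *Cyp1b1* from -0.13 to 0.0857 at 50, *Ahrr* from -0.0567 to 0.0828 at 50, *Ahr* from -0.0219 to 0.34 at 25 and from -0.0221 to 0.26 at 75, and *Arnt* from -0.0011 to 0.0713 at 75, from -0.0142 to 0.0062 for the slope and from -0.0169 to 0.0554 in all exposed arrays. The counts of member probes called ran from 0 to 0. Aquantile leaves ratios as they are by construction, and the filters and the model of only the groups compared leave fold changes as they are. The groups share no replicate numbers, so pairing was possible only by slide, as in the block above. Signal over background limits *Cyp1a1*, *Cyp1b1*, *Ahrr* and *Arnt*.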
